A study of Penicillium oxalicum with 9 samples.

Results

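The strain of Penicillium oxalicum in which crzA had been put back was set against its wild type, to describe which transcripts did not return to the wild-type level. The comparison used 6 of the 9 libraries of the series, chosen by their labels: recovery replicates 1, 2 and 3 and wild-type replicates 1, 2 and 3. Penicillium oxalicum is a filamentous fungus that secretes enzymes degrading plant polysaccharides. The wild type was strain 114-2. The recovery strain is labelled only as a CrzA recover strain, and a CrzA deletion strain supplied the other 3 libraries, which are shown as levels beside the comparison. All cultures were labelled alike. A pre-culture of 24 h at 30 °C gave mycelium that was moved to modified Mendal's medium with 2% starch and sampled 18 h later. The source labels name glucose instead of starch for every sample. The labels do not say where crzA was reinserted, which selection marker the strain carries or whether it is 1 clone. Whether each replicate is its own culture is not stated either, and the p-values speak only of the scatter among libraries, whose source may be technical.

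In fungi, CrzA is the transcription factor, of the zinc finger type, at the end of the calcium signalling route. When calcium rises in the cell, the phosphatase calcineurin removes phosphate groups from CrzA, which then moves into the nucleus and turns on genes of ion balance, cell wall upkeep and stress tolerance. A strain with the gene put back is the usual control of a deletion study: a transcript whose level follows the loss of the gene is looked for again at the parental level once the gene has returned.

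The table gave each gene by locus number, with its level in FPKM, that is, fragments mapped to a gene divided by its length and by the size of the library. No name stood beside a number, and the reference table, which belongs to another strain, matched 0 of them. Genes are therefore given by number, with no role, and the level of crzA itself, which would check the labels of the deletion libraries, was not analysed here. Of the 9860 genes, 8966 reached 1 FPKM in 3 or more of the 6 libraries used, and tests were run on these. The summed FPKM of the 6 libraries ranged from 1032579 to 1063502, and the number of reads behind them is unknown.

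Wild-type replicate 2 stood apart from the other wild-type libraries before any test. The SD over genes of the log2 difference between 2 libraries was 0.242 for wild-type replicates 1 and 3, and it was 0.190 to 0.302 for the 3 pairs of recovery libraries. Wild-type replicate 2 differed from wild-type replicates 1 and 3 with SDs of 0.713 and 0.669. From the recovery libraries it differed by 0.521 to 0.537, which was less than its distance to its own strain. Wild-type replicates 1 and 3 differed from the recovery libraries by 0.568 to 0.668. Replicate 2 was also nearer to the deletion libraries, with SDs of at most 1.081, than wild-type replicates 1 and 3 were, with SDs of at least 1.201. Its smaller distances were thus not limited to the recovery strain. Replicate 2 and wild-type replicate 1 were at least 2-fold apart, on the log2(FPKM + 1) scale, in 971 genes, whereas wild-type replicates 1 and 3 were so in 50 genes. Whether replicate 2 carries the right label was not tested, and every value from all 6 libraries takes its label as given. The level of crzA was not analysed here, and since the wild type and the recovery strain both carry the gene, it need not tell them apart. Which of the wild-type libraries lies nearer to the usual state of the strain cannot be told apart with 3 libraries, so the main results are given with replicate 2 and without it. Deletion replicate 2 likewise stood apart from its own group, with SDs of 0.752 and 0.720 against 0.348 between deletion replicates 1 and 3.

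With all 6 libraries, a small part of the transcripts was called different between the recovery strain and the wild type. Unadjusted p in limma was under 0.05 for 2042 of the 8966 genes, so the calls do not count every difference. The recovery strain had 201 genes higher and 92 lower (limma, Benjamini-Hochberg adjusted p under 0.05), which were 2.24% and 1.03% of those tested and 3.27% together. The median log2 change of the called genes was 0.86 among those higher and -1.18 among those lower, beside 0.09 over all tested genes. The 3 recovery values lay above all 3 wild-type values in 1991 genes (22.2%) and below them in 723 (8.06%), and all 293 called genes were among these. Changes of at least 2-fold on this scale were made by 77 of the higher and 59 of the lower genes, and changes of at least 8-fold by 1 and 5. Adding the deletion libraries to the estimate of spread gave 79 higher and 66 lower genes, and weighting the libraries by their own scatter (limma array weights) gave 3387 and 2147. The excess of higher genes depended on scaling. Higher genes were 68.6% of the calls with FPKM as deposited, 54.6% (148 higher and 123 lower) after centring each library on its median, and 57.9% (198 and 144) after quantile normalization.

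Most transcripts lay near the wild-type level. For 7309 of the 8966 genes (81.5%) the 95% interval of the log2 change in limma lay within 2-fold either way, and for 86 genes (0.959%), 40 higher and 46 lower, it lay wholly beyond 2-fold. For the other 1571 genes the interval reached across a 2-fold change, so neither statement could be made. The genes called with all 6 libraries were a small part of the mRNA by FPKM. Genes called higher, a choice that fixes the direction, held 1.19% ± 0.0444 of the wild-type FPKM total and 2.29% ± 0.133 of the recovery total (SD, n = 3 each). Those called lower held 2.62% ± 0.381 and 0.942% ± 0.0885. With genes split into 4 equal bins by mean FPKM over the 6 libraries, 2.41% were called in the lowest bin and 4.19% in the highest.

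**Figure D1:**
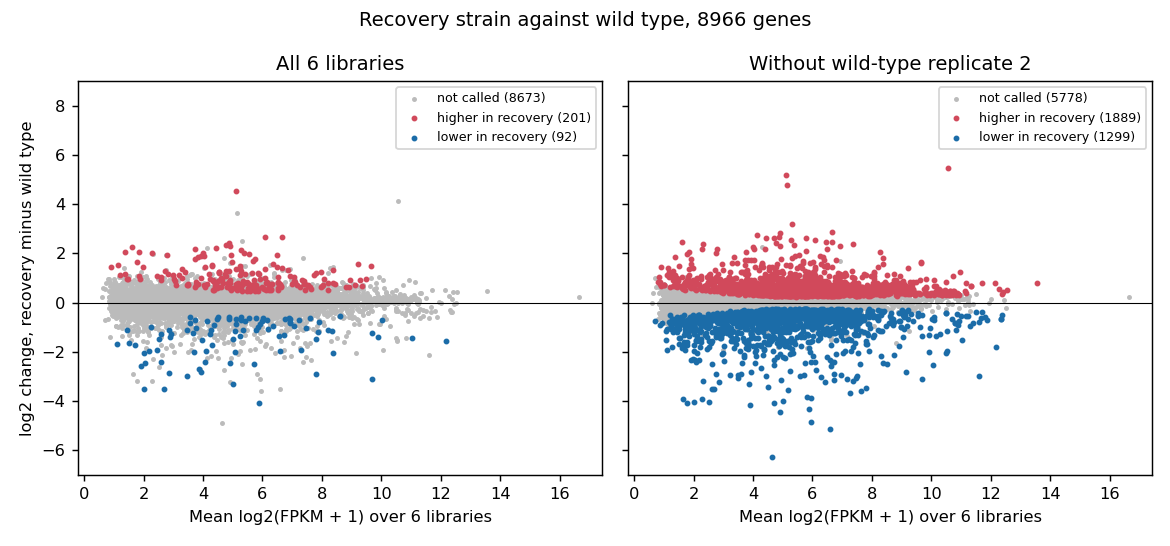
Log2 change of every tested gene, recovery minus wild type (vertical axis, log2(FPKM + 1) scale), against its mean log2(FPKM + 1) over 6 libraries (horizontal axis), fitted with all 6 libraries on the left and without wild-type replicate 2 on the right. Coloured points are genes past an adjusted p of 0.05 in limma, 201 higher and 92 lower on the left and 1889 higher and 1299 lower on the right.

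The genes below were taken by size of change from those called both with and without wild-type replicate 2. PDE_09675 had 33.5, 49.9 and 35.3 FPKM in wild-type replicates 1, 2 and 3 and 277, 259.8 and 227 FPKM in the recovery libraries. All 3 recovery values lay far above the wild-type range, and the deletion libraries lay below it, at 7.36 to 13.6 FPKM. The log2 change was 2.67 ± 0.17 (SE, limma adjusted p = 0.00177), and it kept its call under all 18 alternatives tried, with adjusted p in limma of at most 0.0227. PDE_07655 had 6.62, 17.0 and 1.77 FPKM in the wild type and 144, 150.1 and 212 FPKM in the recovery strain. The groups did not overlap, and the deletion libraries (68.8 to 90.7 FPKM) lay between them. Its log2 change was 4.53 ± 0.64 (SE, limma adjusted p = 0.0225), but the wild-type values were low and uneven. It lost its call under 6 of 18 alternatives, among them the fit without wild-type replicate 1 and those without each recovery library, and adjusted p in limma ranged from 6.26e-05 to 0.127. Losing a call when 1 library other than wild-type replicate 2 was left out was common among called genes. Of the 293 calls, 60 were kept without wild-type replicate 1 and 35 without wild-type replicate 3. Leaving out recovery replicates 1, 2 and 3 in turn kept 12, 25 and 86.

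Among genes lower in the recovery strain, PDE_03292 had 234, 179 and 339 FPKM in the wild type and 12.9, 11.8 and 15.4 FPKM in the recovery strain. The deletion libraries, at 60.0 to 107 FPKM, again lay between the groups. Its log2 change of -4.09 ± 0.23 (SE, limma adjusted p = 0.00111) was called under all 18 alternatives. PDE_00845 had 25.5, 21.1 and 16.5 FPKM in the wild type and 0.750, 0.710 and 1.31 FPKM in the recovery strain, so it was nearly silent there. Its deletion values were uneven, at 40.8, 2.04 and 15.7 FPKM, and covered the wild-type range. It fell by 3.51 ± 0.21 on the log2 scale (SE, limma adjusted p = 0.00131). Adjusted p rose to 0.0650 in limma when the deletion libraries were added to the estimate of spread, the 1 alternative of 18 that ended the call, with 3.05e-07 as the lowest over the others.

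The most abundant called genes that were lower lie next to each other in locus number. PDE_00509 had 9192, 5654 and 9695 FPKM in the wild type and 2234, 2485 and 3476 FPKM in the recovery strain. The deletion libraries held 6299 to 6687 FPKM, inside the wild-type range, so that the recovery strain was the one that stood apart. Its log2 change was -1.57 ± 0.28 (SE, limma adjusted p = 0.0404), and the call was lost without any 1 of the libraries other than wild-type replicate 2 (adjusted p in limma over all alternatives 1.75e-06 to 0.212). PDE_00508 had 3510.1, 3069 and 3868 FPKM in the wild type against 1115, 1215 and 1494 FPKM in the recovery strain. Its deletion libraries, at 3653, 3890.4 and 3784 FPKM, lay at the upper end of the wild-type range, with deletion replicate 2 just above it. On the log2 scale it fell by 1.45 ± 0.17 (SE, limma adjusted p = 0.0135, and 1.00e-06 to 0.115 over the alternatives). Leaving out wild-type replicate 1 or 3 or recovery replicate 1 or 2 ended this call. The next locus, PDE_00510, named after its values were seen, was called lower too, from a wild-type mean of 5.78 ± 0.376 FPKM to a recovery mean of 2.38 ± 0.130 FPKM (SD, n = 3 each, limma adjusted p = 0.0196). It lost its call under 7 of 18 alternatives, among them leaving out any 1 library other than wild-type replicate 2 (adjusted p in limma up to 0.128).

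The most abundant called genes that were higher had lower deletion values. PDE_06389 had 419, 556 and 457 FPKM in the wild type and 1493, 1451 and 1117 FPKM in the recovery strain. Its deletion libraries, at 85.1 to 292 FPKM, lay below both groups. The log2 change was 1.501 ± 0.18 (SE, limma adjusted p = 0.0128, and 9.03e-07 to 0.115 over the alternatives, 6 of which ended the call). PDE_00924 had 525, 428 and 598 FPKM in the wild type and 1056, 1002 and 941 FPKM in the recovery strain, against 13.9 to 16.7 FPKM in the deletion strain. All 3 recovery values lay above all 3 wild-type values. In log2 terms the step was 0.96 ± 0.16 (SE, limma adjusted p = 0.0299, and 1.92e-05 to 0.190 over the alternatives, 7 of which ended the call).

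**Figure D2:**
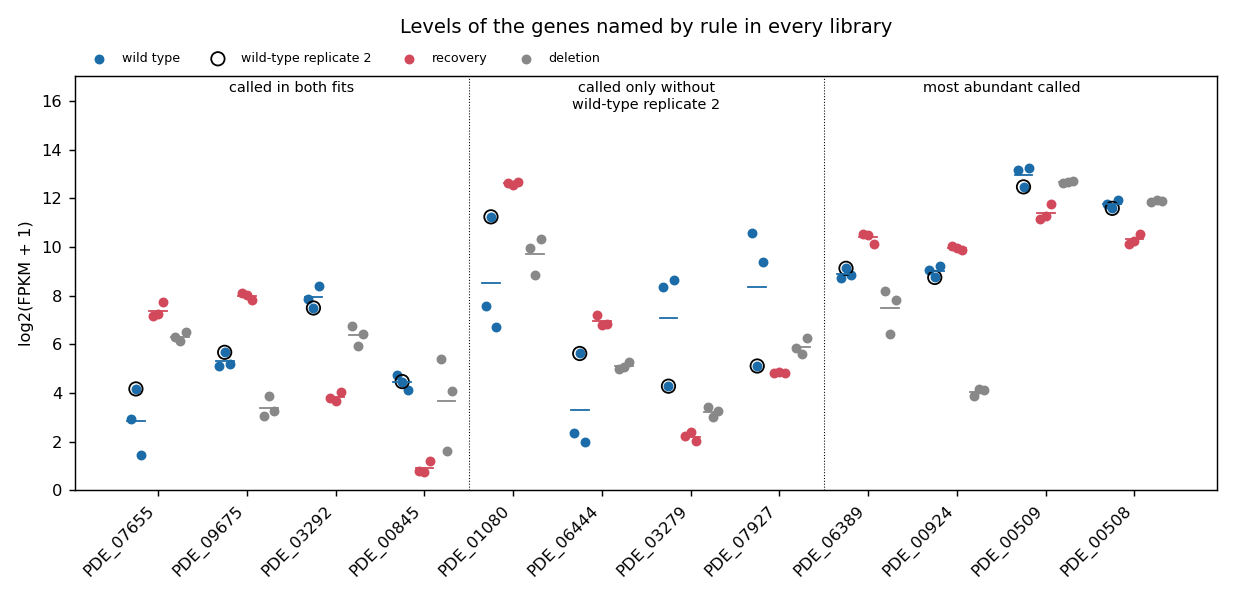
Level of the 12 genes taken by the naming rule in each of the 9 libraries, as log2(FPKM + 1) on the vertical axis; points are libraries, short lines the mean of the 3 log2 values of a strain, and black rings mark wild-type replicate 2. In the 4 genes called in both fits the ringed point lies nearer the other wild-type points than the recovery points, and in the 4 called only without it the ringed point lies away from them, toward the recovery points.

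A gene can miss the wild-type level in several ways, and the deletion libraries show which way it went. These libraries share the wild-type or the recovery samples with any comparison made on them, so they are given as levels and not as an overlap. The following 3 genes were chosen after their values were seen. PDE_07106 had 2707, 2440.3 and 2204 FPKM in the wild type, 255, 264 and 321 FPKM in the recovery strain and 6650.3, 7139 and 8402 FPKM in the deletion strain. With crzA put back, this transcript lay below the wild type by -3.13 ± 0.15 in log2 terms (SE, limma adjusted p = 0.000750), on the side away from the deletion strain. PDE_02584 had 26.6, 22.8 and 30.2 FPKM in the wild type and 170.2, 164 and 177 FPKM in the recovery strain, with 0.0300 to 0.160 FPKM in the deletion strain. Its log2 change of 2.64 ± 0.12 (SE, limma adjusted p = 0.000750) was also away from the deletion strain. PDE_06096 lay between instead: 14.2, 12.1 and 11.3 FPKM in the wild type, 70.0, 86.1 and 47.1 FPKM in the recovery strain, and 238 to 358 FPKM in the deletion strain. Its log2 change was 2.31 ± 0.22 (SE, limma adjusted p = 0.00725), and leaving out recovery replicate 1 ended the call (adjusted p 0.0655 in limma, and 5.10e-06 to 0.0655 over the alternatives).

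Over the 201 genes called higher in the recovery strain, the median log2 difference between deletion and wild type was -0.10, with quartiles of -1.002 and 0.50. Over all tested genes this median was 0.05, with quartiles of -0.33 and 0.39. Over the 92 genes called lower it was 0.25, with quartiles of -0.44 and 1.03. The called genes thus held deletion values on both sides of the wild type.

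Leaving out wild-type replicate 2 was the one choice of library among the 6 that raised the number of calls. Without it the recovery strain had 1889 genes higher and 1299 lower (limma, adjusted p under 0.05), which were 21.1% and 14.5% of the 8966 tested and 35.6% together. Here too the excess of higher genes was smaller with other scalings, with 1591 higher and 1485 lower when libraries were centred on their medians, and 1785 and 1401 when quantile normalization was used. Leaving out any 1 of the other 5 libraries gave fewer calls than the full set, from 12 genes without recovery replicate 1 to 103 without recovery replicate 3. The counts without wild-type replicates 1 and 3 were 61 and 36. All 293 genes called with the 6 libraries were called again without replicate 2 with the same sign, and 2895 were called only without it, 1688 higher and 1207 lower. No gene was called only with it.

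The sizes of the changes and their errors are given here as a description, since a gene called only without replicate 2 will tend, by that choice, to have a larger estimate or a smaller error without it. Over the 2895 genes, the median size of the log2 change was 0.39 with replicate 2 and 0.53 without it. Their median standard error was 0.180 with replicate 2 and 0.110 without it. For 2588 of them (89.4%) the estimate was larger without replicate 2, as it was for 6120 of all 8966 genes (68.3%), and for 38 the sign differed between the fits. Over the 293 genes called in both fits these values barely moved, with medians of 0.95 and 0.96 for the change and 0.135 and 0.117 for its standard error. These 293 were all called with replicate 2 in the fit, so a small shift follows in part from that choice. Many of the added calls were small. Of the 1889 genes higher without replicate 2, 187 were higher by at least 2-fold, and of the 1299 lower, 391 were lower by at least 2-fold and 35 by at least 8-fold. The 95% interval lay wholly beyond 2-fold for 297 genes (3.31%), 86 higher and 211 lower, and within 2-fold for 7595 genes (84.7%). With all 6 libraries the genes with an interval beyond 2-fold were split almost evenly, 46 lower and 40 higher. Decreases were the larger part without replicate 2.

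**Figure D3:**
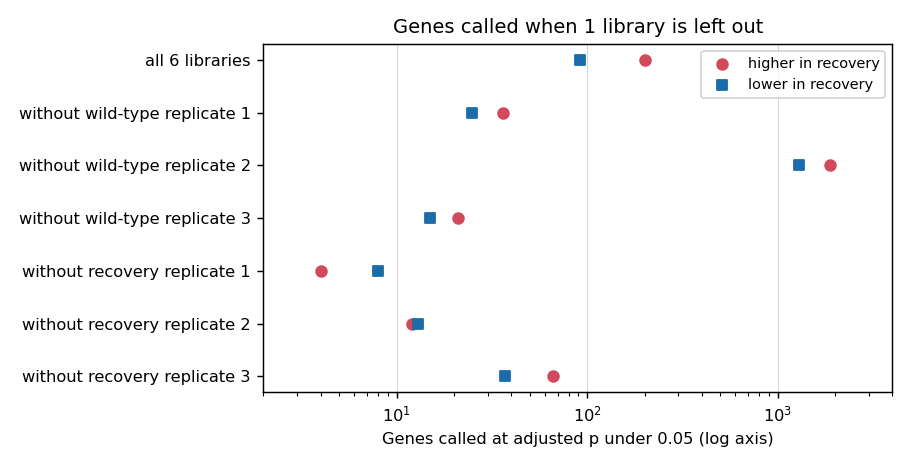
Number of genes called higher (circles) and lower (squares) in the recovery strain with all 6 libraries and after leaving out each library in turn, on a log axis. The count rises from 201 and 92 to 1889 and 1299 without wild-type replicate 2 and falls without each of the other 5 libraries.

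The 1889 and 1299 genes rest on 2 wild-type libraries that were close to each other, and on a choice made with results known. With the deletion libraries added to the estimate of spread, the counts without wild-type replicate 2 were 250 higher and 431 lower. With deletion replicate 2 also left out they were 1416 and 1111. Without wild-type replicate 1 as well, which leaves replicate 3 as the lone wild-type library and assumes that it varies like the recovery libraries, they were 565 and 718. Without wild-type replicate 3 as well, which leaves replicate 1 alone, they were 1492 and 976.

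Since wild-type replicate 2 had no part in the fit without it, its own values could be read against the genes called there. Such genes are by choice ones in which wild-type replicates 1 and 3 lie away from the recovery strain. On the log2 scale its place was counted from 0 at the mean of wild-type replicates 1 and 3 to 1 at the mean of the recovery libraries. The median place over the 3188 genes was 0.787, with quartiles of 0.324 and 1.26. Replicate 2 lay nearer the recovery mean in 2114 genes (66.3%) and nearer the wild-type mean in 1074 (33.7%). It was inside the range of the recovery libraries or past it in 1548 genes (48.6%). The directions differed. Among genes lower in the recovery strain the median place was 1.07 and 80.4% lay nearer the recovery mean, whereas among genes higher in it the median was 0.612 and 56.6% did so. Places were read on FPKM as deposited, and whether this gap depends on scaling was not tested. The median FPKM of the tested genes was 28.3 in replicate 2 and 29.4 to 31.3 in the other wild-type and recovery libraries. The same reading of the other libraries, each against the genes called without it, gave medians from -0.0194 to 0.208. Those medians rest on 12 to 103 genes, called with replicate 2 in the fit, so they are not the same genes. Deletion replicate 2, which had no part in the fit, differed from its own group in the same direction as wild-type replicate 2. The 1889 higher genes held 30.88% of its FPKM, against 25.85% and 27.04% in deletion replicates 1 and 3. The 1299 lower genes held 17.17%, against 23.03% and 21.89%. The cause was not tested.

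**Figure D4:**
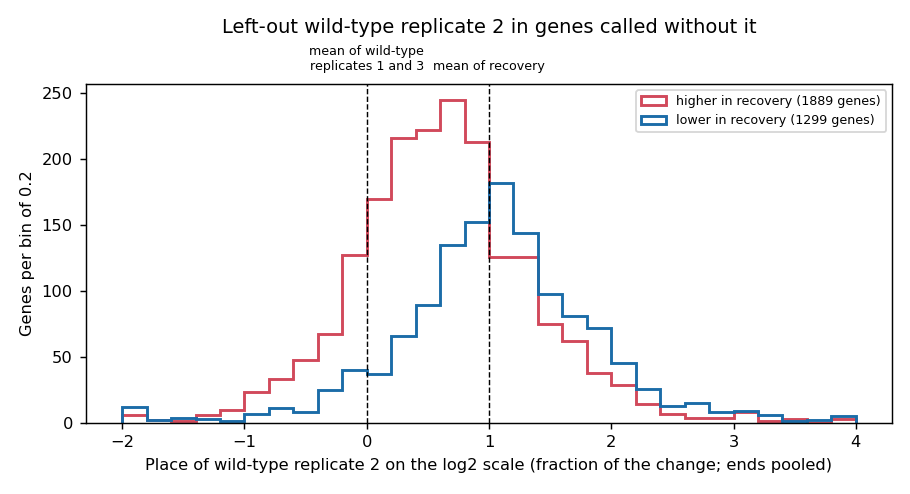
Place of wild-type replicate 2 between the mean of wild-type replicates 1 and 3 (0) and the mean of the recovery libraries (1) on the log2 scale, as a histogram of genes called without it in bins of 0.2, with values beyond the ends pooled in the outer bins. Genes lower in the recovery strain (1299) gather around 1, with a median of 1.07, and genes higher in it (1889) are centred below 1, with a median of 0.612.

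The next 4 genes were chosen as those with the largest change among genes called only without replicate 2. That replicate 2 lies away from wild-type replicates 1 and 3 in them follows from this choice, and their values are given as a description. PDE_01080 had 189.6 and 103 FPKM in wild-type replicates 1 and 3 but 2409.5 FPKM in replicate 2, and 6369.9, 5942 and 6489 FPKM in the recovery strain. Replicate 2 thus lay above the deletion libraries (460.2 to 1292 FPKM) and below the recovery strain. The log2 change was 4.11 ± 1.11 with it (SE, limma adjusted p = 0.0989) and 5.48 ± 0.23 without it (limma adjusted p = 1.58e-05). PDE_06444 had 4.07 and 2.95 FPKM in wild-type replicates 1 and 3, 48.2 FPKM in replicate 2 and 109 to 148 FPKM in the recovery strain. Its log2 change was 3.64 ± 0.93 with replicate 2 (SE, limma adjusted p = 0.0878) and 4.79 ± 0.16 without it (limma adjusted p = 3.97e-06).

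Of the genes lower in the recovery strain, PDE_03279 had 330.4 and 397 FPKM in wild-type replicates 1 and 3, 18.4 FPKM in replicate 2 and 3.04 to 4.22 FPKM in the recovery strain. The deletion libraries, at 7.16 to 9.84 FPKM, lay above the recovery strain and far below wild-type replicates 1 and 3. The log2 change was -4.89 ± 1.12 with replicate 2 (SE, limma adjusted p = 0.0716) and -6.30 ± 0.13 without it (limma adjusted p = 6.84e-07). PDE_07927 had 1513 and 663 FPKM in wild-type replicates 1 and 3 and 33.5 FPKM in replicate 2, close to the 27.1, 28.4 and 27.6 FPKM of the recovery strain. Its log2 change was -3.51 ± 1.31 with replicate 2 (SE, limma adjusted p = 0.184) and -5.13 ± 0.34 without it (limma adjusted p = 0.000340).

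Replicate 2 did not only resemble the recovery strain. It lay at least 2-fold above all 5 other libraries in 78 genes and at least 2-fold below all of them in 71, together 1.66% of those tested. No other library of the 6 stood apart in this way in more than 11 genes. The neighbours PDE_00369, PDE_00370 and PDE_00371, chosen after their values were seen, had 514, 742 and 659 FPKM in replicate 2 against 6.17 to 32.2 FPKM in wild-type replicates 1 and 3. The recovery libraries held 52.1 to 121 FPKM of them. The deletion libraries were uneven, at 44.3 to 1090 FPKM for PDE_00369, 135 to 1601 FPKM for PDE_00370 and 6.30 to 99.45 FPKM for PDE_00371. PDE_08904, chosen likewise, had 1.68 FPKM in replicate 2, 191 and 92.8 FPKM in wild-type replicates 1 and 3, and 35.4 to 40.1 FPKM in the recovery strain. For such genes a comparison without replicate 2 still calls the recovery strain different, although replicate 2 lay further from wild-type replicates 1 and 3 than the recovery libraries did.

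Called genes also formed short runs in locus number, a rough guide to position, since the table gives no coordinates. Runs were counted over consecutive rows of the table, untested genes breaking a run, and all runs were read after the results were seen. Among the 6-library calls, 37 of the 201 higher genes and 12 of the 92 lower genes lay in runs of at least 2 with one direction. The densest stretch of 40 rows, PDE_01180 to PDE_01219, held 10 called genes of 33 tested, 3 higher and 7 lower. Over all tested genes 3.27% were called, 2.24% higher and 1.03% lower. Of 246 successive stretches of 40 rows, 89 held none. Without replicate 2, 35.6% of the tested genes were called, with a median of 13 per stretch. Runs of at least 2 then held 947 of the 1889 higher and 581 of the 1299 lower genes. The longer runs given below without replicate 2 are to be read beside that higher share.

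The longest of these runs was PDE_01215 to PDE_01219, with 5 genes lower by log2 changes of -2.42 to -1.24 and limma adjusted p from 0.000750 to just under 0.05. PDE_01216 moved most, from 41.8, 34.8 and 36.6 FPKM in the wild type to 5.34, 6.74 and 6.65 FPKM in the recovery strain. The deletion strain held 58.2 to 67.7 FPKM of it, above the wild type. Its log2 change of -2.42 ± 0.13 (SE, limma adjusted p = 0.000750) was called under all 18 alternatives. The other 4 were less firm: each lost its call without any 1 of the libraries other than wild-type replicate 2. Each of those fits also lost most of the 293 calls. PDE_01219 lost its call under 10 of 18 alternatives. Without replicate 2 the run extended over 13 genes, PDE_01210 to PDE_01222, with log2 changes of -2.47 to -0.80. Replicate 2 lay between the other wild-type libraries and the recovery strain for much of it, nearer the recovery mean in 8 of the 13. Among all genes lower without replicate 2, it was nearer in 80.4%. PDE_01221, the most abundant of them, had 804 and 846 FPKM in wild-type replicates 1 and 3, 341 FPKM in replicate 2 and 402 to 432 FPKM in the recovery strain. Close by, PDE_01206 was higher in the recovery strain, at 398, 371 and 406 FPKM against 168, 128 and 199.8 FPKM, which was 1.26 ± 0.17 in log2 terms (SE, limma adjusted p = 0.0196). Its call was lost under 5 of 18 alternatives (adjusted p in limma 9.61e-06 to 0.127).

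**Figure D5:**
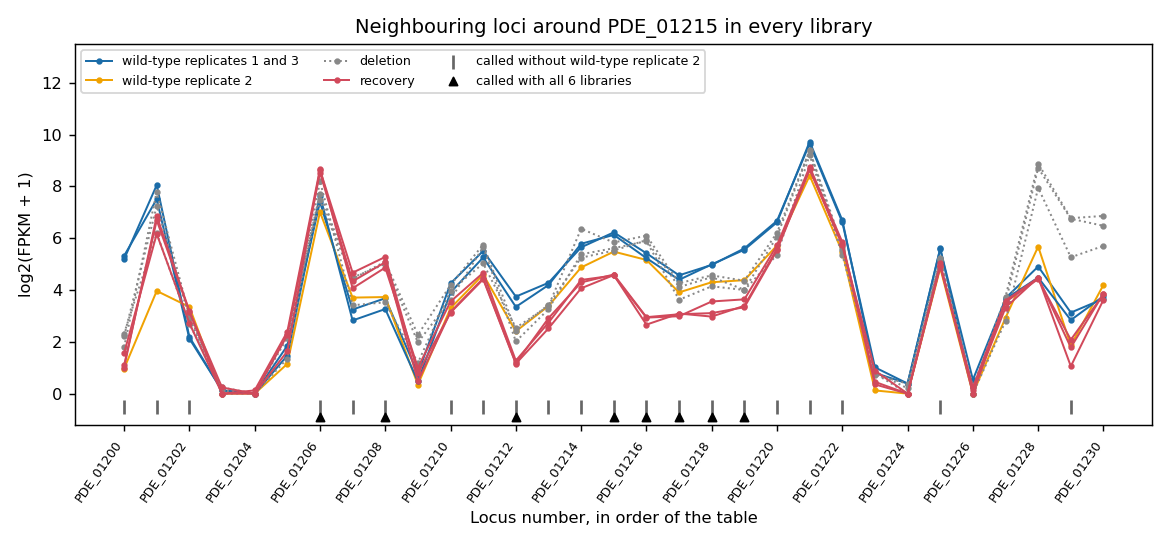
Level of 31 neighbouring loci around PDE_01215 in each of the 9 libraries, as log2(FPKM + 1) against locus number; triangles mark genes called with all 6 libraries and ticks those called without wild-type replicate 2. From PDE_01212 to PDE_01219 the 3 recovery lines run below the wild-type and deletion lines, with wild-type replicate 2 between the other wild-type lines and the recovery lines.

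A run of the opposite direction did not hinge on replicate 2. PDE_10007, PDE_10008, PDE_10009 and PDE_10010 were higher in the recovery strain by log2 changes of 0.67 to 0.79, with limma adjusted p from 0.0153 to 0.0427. Replicate 2 lay with the other wild-type libraries in all 4. PDE_10008, for example, had 138, 140.4 and 148 FPKM in the wild type and 233, 239 and 230.2 FPKM in the recovery strain. The deletion strain held 8.72 to 12.6 FPKM of it. PDE_10009, the most abundant of the 4, went from 413, 429.6 and 475 FPKM to 756, 752 and 635 FPKM, with 10.9 to 16.3 FPKM in the deletion strain. These changes were small, and leaving out any 1 library other than wild-type replicate 2 ended each of the 4 calls. Without replicate 2 the run covered 11 genes, PDE_10003 to PDE_10013.

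The longest run without replicate 2 held no gene that was called with it. Of all 1299 genes lower without replicate 2, 1207 were called only without it. PDE_09225 to PDE_09241 were 17 genes lower in the recovery strain, with log2 changes of -1.08 to -0.35 and limma adjusted p of at most 0.0471. With all 6 libraries their adjusted p in limma ranged from 0.0651 to 0.790. Replicate 2 lay nearer the recovery mean in 16 of the 17, at a median place of 0.835. Over all genes lower without replicate 2, it lay nearer in 80.4%, at a median place of 1.07. These loci spanned wild-type means of 3.65 to 4621 FPKM and recovery means of 0.877 to 3093 FPKM, while the highest deletion mean was 35.1 FPKM.

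The following 3 of these loci were chosen after their values were seen. PDE_09235 had 4667, 3865 and 5331 FPKM in wild-type replicates 1, 2 and 3, and 2709.6, 2816 and 3617 FPKM in the recovery strain. The deletion strain held 6.82 to 7.87 FPKM of it, so the recovery strain had regained most of the wild-type level, with a mean 0.660 of it. Its log2 change was -0.60 ± 0.20 with replicate 2 (SE, limma adjusted p = 0.139) and -0.72 ± 0.15 without it (limma adjusted p = 0.00788). PDE_09228 had 2648, 1903 and 2996 FPKM in the wild type, 1332, 1259 and 1949 FPKM in the recovery strain and 3.16 to 4.65 FPKM in the deletion strain. PDE_09239 had 4367, 2948 and 4425 FPKM in the wild type, 2442, 2359.9 and 2775 FPKM in the recovery strain and 9.42 to 16.0 FPKM in the deletion strain. In both, the recovery strain stood far nearer to the wild type than to the deletion strain on the log2 scale. In FPKM the recovery mean was 0.602 of the wild-type mean for PDE_09228 and 0.645 for PDE_09239. Wild-type replicate 2 lay inside the recovery range for PDE_09228 and between the groups for PDE_09239. Calls in these 3 genes were not firm without replicate 2 either. PDE_09228 lost its call when wild-type replicate 1 or 3 was also left out (limma adjusted p up to 0.0616), PDE_09235 when replicate 3 was (0.0539) and PDE_09239 with all 3 strains in the fit (0.0681).

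The 8 genes from PDE_09756 to PDE_09763 were a further run lower without replicate 2. Replicate 2 lay nearer the recovery mean in all 8, and 0 of them were called with all 6 libraries. Both were also common among all 1299 genes lower without it, with 80.4% nearer the recovery mean and 1207 called only without it.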

How the data were processed

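A single table held 9860 genes and 9 libraries. Its values were deposited as FPKM, per the file headers. Per the labels' protocols, libraries were made from NlaIII and MmeI tags, and how tags gave FPKM is not stated there. Aligner, counting tool and build: not given in the sources used here. Depth is unknown, so no counting intervals were computed. Samples were grouped by the strain in their labels, and columns matched by name. No 2 libraries of the 6 were the same: at most 88 of 8966 genes had equal values in any pair.

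FPKM values were analysed as log2(FPKM + 1), a scale that understates changes of low genes, with genes of at least 1 FPKM in 3 or more of the 6 libraries. The 6 libraries were fitted with limma 3.58.1 (R 4.3.3), 1 mean per strain, trend and robust options and no covariate; tests were two-sided, with Benjamini-Hochberg adjustment over all tested genes. A fit of the same form left out wild-type replicate 2. The fit was tested on simulated data, drawn with the same spread of a gene in every library. No simulated library stood apart in many genes as wild-type replicate 2 did, so that case was not tested. Alternatives were pseudocounts of 0.1 and 5, filters, scalings, moderation options, libraries left out, all 3 strains in the fit, array weights, a replicate block and a threshold of 0.01. The naming rule took at most 2 genes higher and 2 lower with the largest change in each set (called in both fits, called only without replicate 2, called only with it), with groups not overlapping and a mean of at least 5 FPKM, and the 2 most abundant called each way. Any other locus was chosen after its values were seen. The comparison, its members and its settings were chosen with earlier results of these data known. Summaries and plots used Python 3.11.15, numpy 2.4.6, pandas 2.3.3 and matplotlib 3.10.9.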

Additional observations from a re-analysis of the deposited data

How the results depend on the processing

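Counts below are higher then lower. With all 6 libraries (201 and 92), pseudocounts of 0.1 and 5, both filters, rescaling to TPM and limma without trend and robust options moved no count by more than 1.5 times. Quantile normalization gave 198 and 144. All 3 strains in the fit gave 79 and 66, array weights 3387 and 2147, and a threshold of 0.01 gave 22 and 17, which is stricter by construction. The cause of the other shifts was not tested. Leaving out 1 library gave 4 to 1889 higher and 8 to 1299 lower. Without wild-type replicate 2 (1889 and 1299), all 3 strains in the fit gave 250 and 431, and a threshold of 0.01 gave 735 and 800. Leaving out 1 more library gave 565 to 2400 higher and 718 to 1509 lower. The number of genes with an interval within 2-fold stayed within 1.5 times of its value under every alternative run. Same-number libraries were treated as unpaired, because their deviations from the group means correlated at -0.108, 0.117 and 0.0636, and wild-type replicate 1 correlated best with recovery replicate 3 (0.163). A replicate block all the same gave 84 and 69 with all 6 libraries, and 973 and 1007 without wild-type replicate 2. Of 575 values of named genes over the alternatives with all 6 libraries, 443 kept both sign and call, 115 were no longer past the threshold, 17 came past it and 0 reversed. Without wild-type replicate 2, 532 of 543 kept both and 11 were no longer past it. The fit with all 3 strains and without deletion replicate 2 was added after seeing the data. Read depth is unknown, so the limits it sets were not estimated.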
